A study of Mus musculus with 12 samples.

Results

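The genes described here encode alcohol dehydrogenases (Adh), aldehyde dehydrogenases (Aldh) and aldo-keto reductases (Akr). They were chosen by name from the gene lists of 2 H3K27ac Hi-ChIP networks of mouse hepatocytes. Names beginning with Aldh, Akr1 or Akr7, or with Adh and a digit, were taken, without pseudogenes and without the bile acid gene Akr1d1. This gave 25 genes of the 16197 names in either network, 13 Aldh, 6 Adh and 6 Akr genes, all of them among the 9596 protein-coding genes listed. The rule used no clique size, but a gene had to be listed in a clique at either age to be chosen.

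Alcohol dehydrogenases oxidise alcohols such as ethanol and retinol to aldehydes, and aldehyde dehydrogenases carry the aldehydes on to acids. Aldo-keto reductases run the other way for many substrates, reducing aldehydes and ketones, including steroids and sugars, with NADPH. Hepatocytes are a major site of all 3 activities, which also serve the breakdown of amino acids, fatty aldehydes and dietary toxins.

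Hepatocytes came from male C57BL/6 mice, 5 months old in the young group and 25 months old in the old group, with no genotype or treatment beyond age named in the labels. The young mice were bought commercially and the old ones came from a National Institute on Aging stock, so that age and source of the animals cannot be told apart. Each group had 6 libraries, from 2 biological replicates with technical repeats in 3 batches. H3K27ac Hi-ChIP joins DNA ends that lie close together in the nucleus and then pulls down chromatin carrying acetylated lysine 27 of histone H3, a mark of active promoters and enhancers.

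The authors deposited 1 network per age. Its nodes are 5 kb bins, and each bin belongs to 1 clique, the authors' word for a group of bins, listed with gene names. The young network had 56928 nodes in 5401 cliques and the old network 40304 nodes in 5973 cliques, with a mean of 10.5 and 6.75 nodes. The read depth behind either network is unknown. No replicate can be separated, so that no p-value is given, and every difference below describes these 2 networks. Fewer cells with an active region and fewer contacts per cell cannot be told apart in such pooled material. Of 10 hepatocyte markers, 9 were listed in young and 8 in old. Markers of other liver cells were rare: none of 8 for macrophages at either age, 2 and 1 of 7 for endothelium, 1 and 0 of 8 for stellate cells, 1 and 0 of 6 for bile duct cells and 1 and 1 of 6 for lymphocytes. The largest clique listing any of these other markers held 25 nodes in young and 7 in old. Their part in the results was not tested.

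Clique size, the number of nodes in the largest clique listing a gene, was compared between ages, with 0 for a gene that no clique of an age listed. Most of the 25 genes had the smaller value in old, with all 6 Adh and all 6 Akr genes among them, although 3 Adh genes and 1 Akr gene were larger in old relative to the mean clique size of the age. The value was smaller in old for 21 genes (84.0%), larger for Aldh16a1, Aldh9a1 and Aldh1a2, and equal for Aldh1l1. Among all listed protein-coding genes 78.5% were smaller in old, so that the share among the 25 lay near that of the network as a whole. A fall of at least 2-fold, taken on the number of nodes plus 1, was seen for 12 genes (48.0%), 9 of them listed in no old clique, against a background of 48.6%. A rise of that size was seen for Aldh1a2 alone, against a background of 11.9%. The median log2 ratio of old to young size was -0.99 over the 25 genes and -0.93 over all listed protein-coding genes.

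The 25 genes split into a group listed at both ages and a group listed at 1 age. Those at both ages were 15, and their median clique held 50 nodes in young against 38 in old, compared with 30 and 16 over the 6257 protein-coding genes listed at both ages. Of the 15, 3 fell at least 2-fold, namely Akr1a1, Aldh6a1 and Akr1c14, against a background of 35.7%. Their median log2 ratio was -0.39, and that of all genes listed at both ages was -0.63. A further 9 genes were listed in young only, which is 36.0% of the 25 against a background of 25.4%, and Aldh1a2 was listed in old only. Members are not independent, since 12 of the 24 listed in young shared 4 cliques. With each size divided by the mean clique size at that age, which moved the median of all genes by 0.61 on the log2 scale, 15 of the 25 were smaller in old and 10 larger. The share smaller among all genes was then 58.6%. Counted over nodes present at both ages alone, 16 of the 25 were smaller in old and 7 larger, with 55.7% of all genes smaller.

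**Figure D1:**
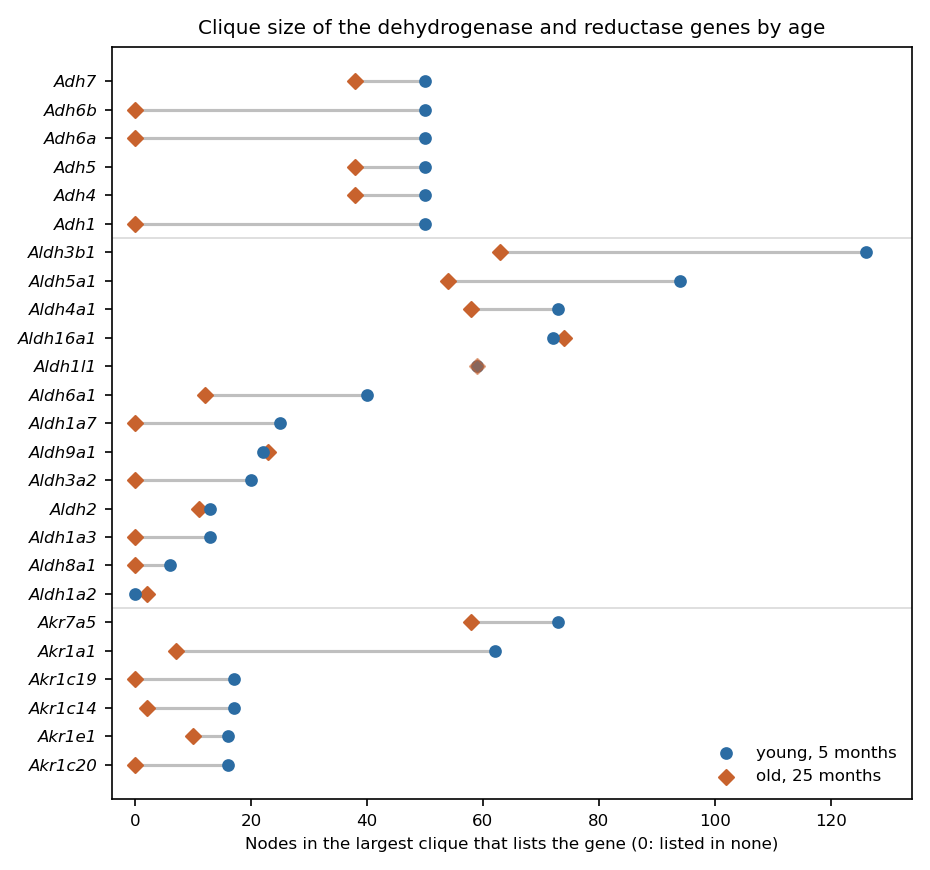
Size, in nodes, of the largest clique listing each of the 25 genes in the young network (circles) and the old network (diamonds), with genes grouped as Adh, Aldh and Akr from top to bottom and 0 for a gene listed in none. Of the 25 genes, 21 have the diamond to the left of the circle, and 9 of these have it at 0.

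**Figure D2:**
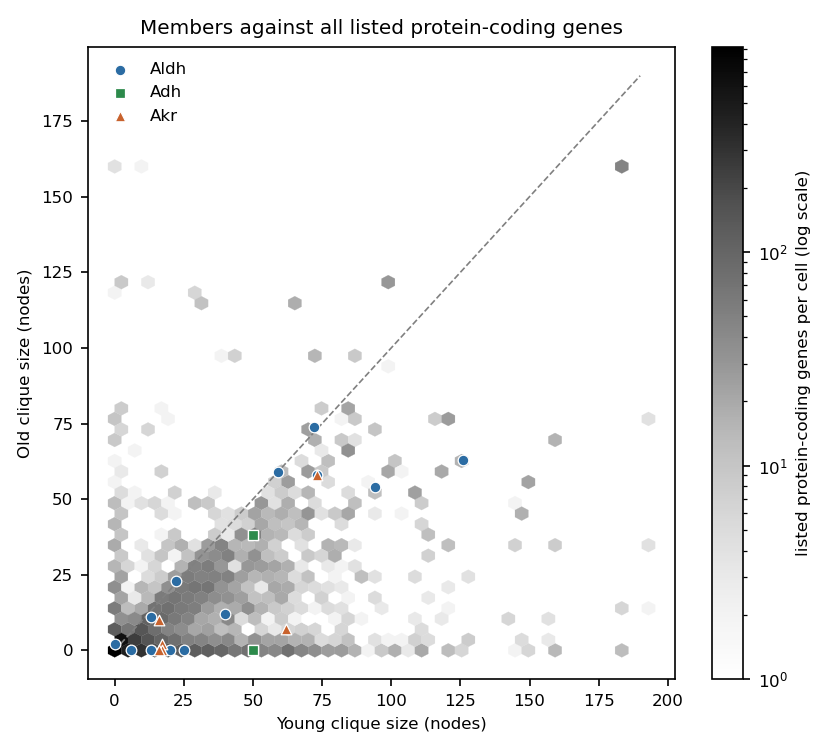
Old against young clique size, in nodes, for the 25 genes (coloured symbols, some on top of each other) and the 9596 listed protein-coding genes (grey cells, shaded on a log scale); the dashed line marks equal size. Aldh16a1, Aldh9a1 and Aldh1l1 lie on or just above the line, and Aldh1a2 is at 0 in young and 2 in old.

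The alcohol dehydrogenase genes lie side by side on chromosome 3 and shared 1 clique at each age. In young, Adh7, Adh1, Adh6a, Adh6b, Adh4 and Adh5 were all listed in a clique of 50 nodes that spanned 345 kb, from 138195001 to 138540000. In old, a clique of 38 nodes from 138125001 to 138530000 listed Adh4, Adh5 and Adh7. No old clique listed Adh1, Adh6a or Adh6b. Adh1 encodes the class I enzyme, the main ethanol and retinol oxidising form of the liver, Adh4 the class II enzyme and Adh5 the class III enzyme, which clears formaldehyde bound to glutathione. Adh7 encodes the class IV enzyme, best known from the stomach, and Adh6a and Adh6b are class V genes.

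The bins of this cluster were kept better than its gene names. Of the 50 young nodes, 33 (66.0%, 95% Wilson interval 52.2 to 77.6) were present in old, all in the clique of 38, and the other 17 were absent. The Jaccard index of the pair, shared nodes over all nodes of either, was 0.60. All 4 bins in and within 2500 bp of Adh1 (138277585 to 138290698) were nodes at both ages, the bin of its start site included. The old clique of 38 nodes therefore covered Adh1 without listing it. Adh4 had 5 of 6 bins at both ages, and Adh5 had 6 of 6 in young and 5 in old. Adh7 had 6 of 8 and then 5. Of the 6 genes, Adh6b had the largest loss of bins: Adh6b went from 6 of 6 bins to 3 and Adh6a from 2 of 5 to 1, losing its start site bin.

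The old clique also reached beyond the Adh genes, with 2 nodes from a young clique of 13. It listed Trmt10a, a tRNA methyltransferase gene, whose young clique held 13 nodes, and Eif4e, the cap-binding translation factor gene, which no young clique listed. Among all listed protein-coding genes, 78.3% had a young clique no larger than the 50 nodes of the Adh genes, and 87.6% had an old clique no larger than 38. Relative to the mean clique size at each age, Adh4, Adh5 and Adh7 had the larger value in old, at a log2 ratio of 0.24.

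**Figure D3:**
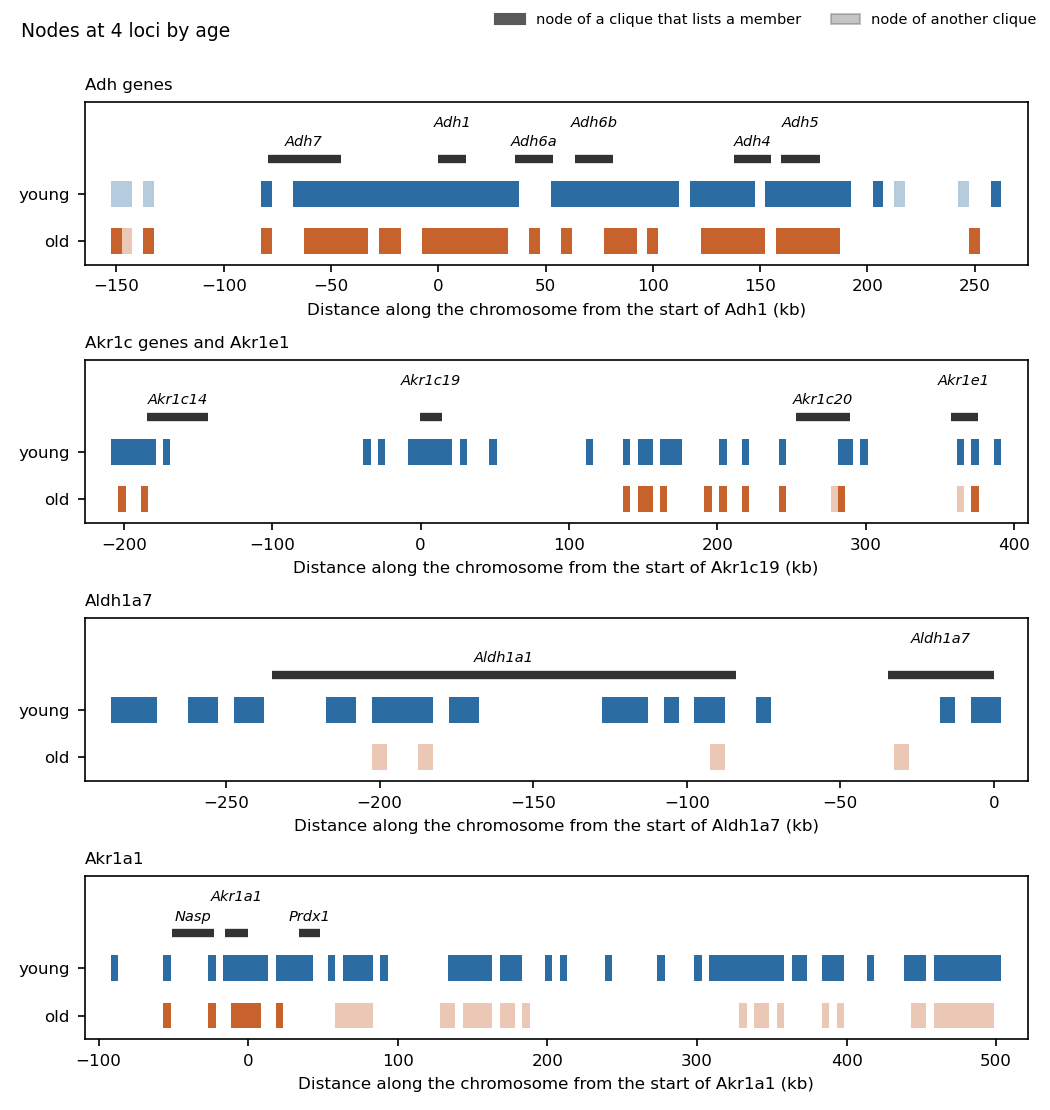
Nodes in the young and old network at 4 loci, by distance in kb along the chromosome from the start of the gene named under each axis; dark blocks are nodes of a clique that lists one of the 25 genes, pale blocks nodes of other cliques, and black bars genes. Over the ranges shown, the Adh locus has 55 nodes in young and 39 in old, the Akr1c locus 33 and 14, the Aldh1a7 locus 25 and 4, and the Akr1a1 locus 62 and 37.

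Promoter sequence is shown for 4 genes whose start site bin and clique behaved differently. At Adh1 the start site bin was a node at both ages although the gene was listed in young only, and this gene was chosen after its values were seen. Akr1a1 had the largest fall by log2 ratio among genes listed at both ages and kept its start site bin. Aldh16a1 had the largest old clique and Aldh3b1 the largest young one, and the start site bin of Aldh3b1 was a node at neither age. The start site used for Aldh3b1 lies inside the annotated gene, whose 5′ end at 3930898 falls outside that bin. Each run is the 250 bases before the RefSeq start site, read 5′ to 3′ on the gene's strand, from the RefSeq table of build GRCm38.p6, and capitals mark matches to the 8 motifs named in the next paragraph.
Adh1, chr3:138277335-138277584, plus strand: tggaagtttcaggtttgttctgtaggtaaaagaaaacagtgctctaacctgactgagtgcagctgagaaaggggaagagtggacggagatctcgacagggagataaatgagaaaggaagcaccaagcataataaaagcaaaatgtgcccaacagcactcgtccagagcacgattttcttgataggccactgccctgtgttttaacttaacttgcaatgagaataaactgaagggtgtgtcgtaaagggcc
Akr1a1, chr4:116651675-116651924, minus strand: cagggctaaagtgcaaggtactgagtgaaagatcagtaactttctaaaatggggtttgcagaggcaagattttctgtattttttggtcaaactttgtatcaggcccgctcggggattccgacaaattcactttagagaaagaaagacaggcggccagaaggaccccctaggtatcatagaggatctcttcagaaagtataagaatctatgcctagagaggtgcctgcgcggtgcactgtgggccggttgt
Aldh16a1, chr7:45154537-45154786, minus strand: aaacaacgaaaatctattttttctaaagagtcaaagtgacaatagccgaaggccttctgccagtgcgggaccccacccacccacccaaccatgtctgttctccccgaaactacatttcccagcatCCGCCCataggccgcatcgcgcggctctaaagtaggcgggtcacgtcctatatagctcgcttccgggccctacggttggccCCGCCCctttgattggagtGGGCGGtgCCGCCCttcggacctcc
Aldh3b1, chr19:3929779-3930028, minus strand: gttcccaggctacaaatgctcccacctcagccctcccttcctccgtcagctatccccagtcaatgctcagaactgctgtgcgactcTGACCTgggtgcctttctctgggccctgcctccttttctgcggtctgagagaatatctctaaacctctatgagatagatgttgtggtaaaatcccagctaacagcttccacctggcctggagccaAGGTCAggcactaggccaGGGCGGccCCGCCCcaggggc

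RefSeq windows were at hand for 21 of the 25 genes and were missing for Aldh2, Aldh1a3, Adh6b and Akr1c20. Matches were sought on both strands of the same 250 bases in all 32851 windows. A gene counted once if any of its windows held a match, while the share of all windows counts each window. In the sequences shown, Aldh16a1 held 4 matches to GGGCGG, the GC box, and Aldh3b1 held 2 of it and 2 of AGGTCA, a part site of nuclear receptors. Adh1 and Akr1a1 held none of the 8 motifs. Over the 21 genes, GGGCGG was found in 6 and in 32.7% of all windows, AGGTCA in 5 and 14.0%, and TATAAA, the TATA box, in 4 and 12.4%. TGACNNNGC, the antioxidant response element, was found in 3 and in 10.2% of windows, and TTGCNNAA, the C/EBP motif, in 2 and 9.56%. GTTAAT, a part site of HNF1, and CACGTG, the E-box, were in 1 gene each and in 6.43% and 6.02% of windows. TTANNTAA, bound by PAR bZIP factors such as Dbp, was in none of the 21 and in 5.43% of windows.

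Among the aldehyde dehydrogenases, the gene that follows the alcohol dehydrogenases in ethanol breakdown had cliques of similar size. Aldh2 (chromosome 5, 121566027 to 121593824) encodes the mitochondrial enzyme that oxidises acetaldehyde. Its clique held 13 nodes in young against 11 in old, at a log2 ratio of -0.22, or 0.37 relative to the mean clique size at each age. Of the 13 young nodes, 8 (61.5%, 35.5 to 82.3) were present in old. Nearly the whole length of Aldh2 was covered at both ages, with 8 of 8 bins in young and 7 in old. Mapkapk5, a stress kinase gene, was listed beside it at both ages, and Acad12, an acyl-CoA dehydrogenase family gene, in young only.

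The retinaldehyde dehydrogenase genes and a close relative had cliques of at most 25 nodes and were each listed at 1 age. Aldh1a3 had a young clique of 13 nodes and none in old, with 5 of the 9 bins at the gene in young and 2 in old. Aldh1a2 had no young clique and an old one of 2 nodes, with 0 of 18 bins in young and 1 in old, the bin of its start site. Aldh1a2 is also known from stellate cells, whose markers are counted above. Aldh1a7 (chromosome 19, 20692953 to 20727556), whose protein closely resembles the retinaldehyde dehydrogenase of Aldh1a1, had a young clique of 25 nodes over 290 kb and none in old. That young clique listed 1 name. Only 3 of its 25 nodes (12.0%, 4.17 to 30.0) were present in old, in cliques of 2 and 3 nodes. Aldh1a1, whose values were looked up after those of its neighbour, holds much of the same stretch: 14 of its 32 bins were nodes in young and 3 in old.

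Both genes for enzymes of lipid-derived aldehydes lost nodes. Aldh3b1 had the largest young clique of the 25, 126 nodes over 985 kb of chromosome 19, and an old clique of 63 nodes over 665 kb. Of the 126 nodes, 56 lay in that old clique, 28 in 5 others and 42 in none. Unc93b1, a regulator of endosomal Toll-like receptors, and Chka, a choline kinase gene, were listed beside it at both ages. The nearby Ndufs8, of mitochondrial complex I, and Tcirg1, a proton pump subunit gene, were listed in young only. Aldh3a2, the fatty aldehyde dehydrogenase gene, had a young clique of 20 nodes and none in old. Even so 5 of its 11 bins were nodes in old, against 7 in young, and the largest old clique there held 11 nodes. The start site bin was a node in young only.

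Genes for enzymes of amino acid breakdown had cliques from 6 to 94 nodes in young, and all 4 were smaller in old, as were 78.5% of all listed genes, though Aldh4a1 was larger relative to mean size, at a log2 ratio of 0.31. Aldh5a1, for succinic semialdehyde dehydrogenase of the GABA pathway, was in cliques of 94 and 54 nodes, and 52 of the 54 old nodes (96.3%) lay in the young clique. Gpld1 and Tdp2 were listed with it at both ages, a phospholipase and a DNA repair gene. Aldh4a1, for the second step of proline breakdown, shared cliques of 73 and 58 nodes on chromosome 4 with Akr7a5. Aldh6a1, of valine and pyrimidine breakdown, fell from 40 nodes to 12, a log2 ratio of -1.66. Its young nodes were spread over 5 old cliques, with 10 nodes in the one that listed it, 17 in others and 13 absent. Lin52, a cell cycle complex gene, was in that young clique and in an old clique of 3 nodes, while Bbof1, Entpd5 and Coq6 were listed with Aldh6a1 in the clique of 12. More bins at Aldh6a1 itself were nodes in old than in young, 4 of 6 against 2. Aldh8a1, of tryptophan breakdown, had a young clique of 6 nodes and none in old, with 5 of 6 bins in young and 2 in old.

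The genes for folate and carnitine metabolism and Aldh16a1 had cliques of nearly equal size at both ages. Relative to the mean clique size at each age, each was larger in old. The log2 ratio was then 0.63 for Aldh1l1, 0.68 for Aldh9a1 and 0.67 for Aldh16a1. Aldh1l1 (chromosome 6, 90550768 to 90599171) encodes a dehydrogenase of 10-formyltetrahydrofolate and was in cliques of 59 nodes at both ages. Of the young nodes 48 (81.4%, 69.6 to 89.3) were present in old, the highest such share among the 16 young cliques, and 43 of them lay in the clique that listed it. The span shrank from 1120 kb to 475 kb, with the same end at 90800000, and the old clique included 9 nodes of a young clique of 17. Klf15, a gene for a transcription factor of amino acid and glucose metabolism, and Slc41a3 were listed beside it at both ages. Uroc1, of histidine breakdown, was listed in young only. Aldh9a1, which acts in carnitine synthesis, was in cliques of 22 and 23 nodes with 17 shared, and all 6 of its bins were nodes at both ages. Mgst3 and Tmco1 were listed with it at both ages and Uck2 in old only. Aldh16a1, the least characterised member, was in cliques of 72 and 74 nodes with 48 shared, beside Fcgrt, the neonatal Fc receptor gene. Of all listed protein-coding genes, 82.8% had a young clique no larger than that of Aldh1l1 and 94.8% an old one, and for Aldh16a1 the shares were 89.4% and 97.2%.

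**Figure D4:**
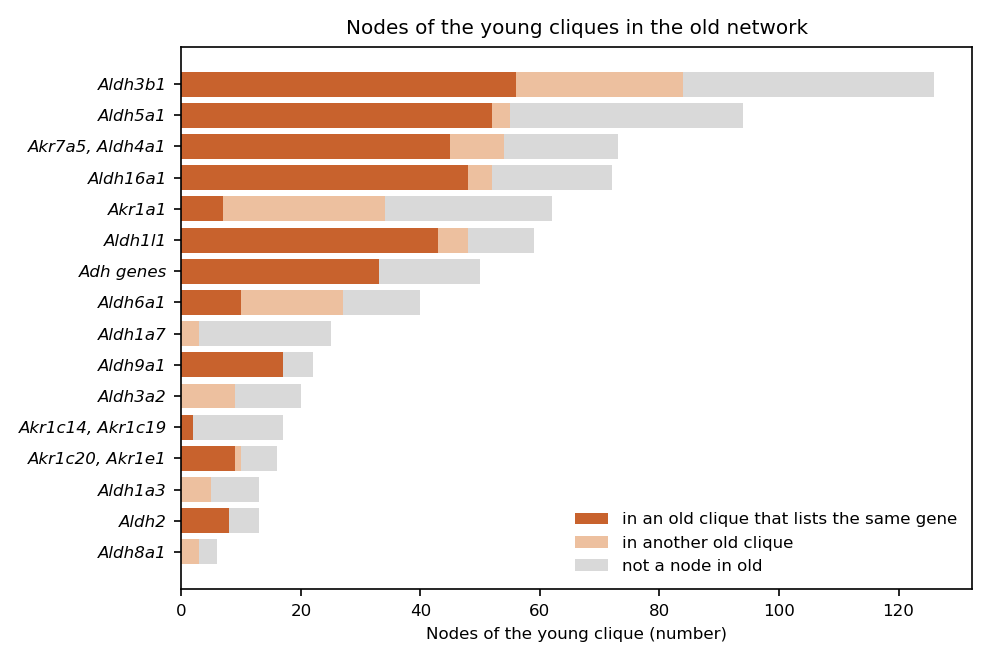
Number of nodes of each of the 16 young cliques that list the genes, divided by whether they lie in an old clique that lists the same gene, lie in another old clique, or are no node in old. The Aldh1a7 clique and the clique of Akr1c14 and Akr1c19 have 22 of 25 and 15 of 17 nodes absent in old, and the Akr1a1 and Aldh6a1 cliques have 27 and 17 nodes in other old cliques.

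Of the aldo-keto reductases, Akr1a1 had the largest fall among those listed at both ages. It encodes the aldehyde reductase that in mice also serves ascorbate synthesis, and lies on chromosome 4 from 116636510 to 116651674. Its young clique had 62 nodes over 595 kb and its old clique 7 nodes over 80 kb, a log2 ratio of -2.98. All 7 old nodes lay in the young clique. A further 27 young nodes formed most of a separate old clique of 28 nodes that listed none of the 25 genes, and 28 were absent. The gene itself had 4 of 5 bins in young and 3 in old. Nasp, a histone chaperone gene, and Ccdc17 stayed in its clique. Prdx1, a peroxidase gene, and Mmachc, of vitamin B12 metabolism, were listed in the clique of 62 and in no old clique. Akr7a5, an aflatoxin aldehyde reductase gene, had a log2 ratio of -0.33, from 73 nodes to 58, with Mrto4 and Iffo2 listed beside it at both ages and the ubiquitin ligase gene Ubr4 in young only. The bins at Akr7a5 went from 3 of 4 to 1.

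The Akr1c genes, whose enzymes act on steroids, and Akr1e1, which reduces a sugar derivative, lie in a row on chromosome 13 and fell into 2 young cliques. The clique of 17 nodes at 4025001 to 4285000 listed Akr1c14 and Akr1c19. In old 2 of these nodes (11.8%, 3.29 to 34.3) were left, as a clique of 2 that listed Akr1c14, at a log2 ratio of -2.58. Akr1c19 had 5 of 5 bins in young and 0 in old, and it was the only one of the 25 genes with no old node at the gene. The clique of 16 nodes at 4345001 to 4625000 listed Akr1c20 and Akr1e1. Here 10 nodes (62.5%, 38.6 to 81.5) were present in old, 9 of them in a clique of 10 that listed Akr1e1. No old clique listed Akr1c20, with 2 of 10 bins at each age. Akr1c genes resemble each other closely in sequence, and the treatment of reads that match several copies was not given in the sources used here.

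Over the 16 young cliques together, 444 of 708 nodes (62.7%, 59.1 to 66.2) were present in old, compared with 55.6% of all young nodes. In old cliques that listed the same gene lay 330 of the 708, in other old cliques 114, and 264 were absent. Counted over pairs of a gene and a node of its clique, the share present was 63.4% for the 25 genes and 66.1% for all listed protein-coding genes. By distance, 63.9% of nodes in or within 2500 bp of the gene were present (54.5 to 72.3), 61.3% of those up to 50 kb away (53.1 to 68.9) and 62.9% of those farther away (58.4 to 67.2). Viewed from old, 355 of the 413 nodes of the 13 old cliques (86.0%, 82.3 to 89.0) were present in young, against 78.5% of all old nodes. Here the share was 93.2% in or within 2500 bp of the gene (83.8 to 97.3), 91.0% up to 50 kb away (83.3 to 95.4) and 82.6% farther away (77.6 to 86.7). Over pairs of a gene and a node it was 93.3%, 91.0% and 84.2% for the 25 genes and 86.6%, 86.5% and 85.5% for all listed protein-coding genes.

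At the genes themselves, 114 of 185 bins were nodes in young (61.6%) and 83 in old (44.9%), while over all listed protein-coding genes the shares were 42.4% and 31.9%. Fewer bins were nodes in old at 17 of the 25 genes (68.0%), against a background of 55.6%. The number was equal at 6 and larger at Aldh6a1 and Aldh1a2. Aldh2 and Aldh5a1 had 8 of 8 bins in young, and Aldh9a1 had 6 of 6 at both ages. Start site bins were nodes in young for 18 of the 21 genes with a RefSeq window (85.7%) and in old for 14 (66.7%), close to the 86.9% and 70.4% of all listed protein-coding genes with a window. The loss was at Adh6a, Akr1c19, Aldh1a7, Aldh3a2 and Aldh8a1, all listed in young only. Adh1 was the only other gene listed in young only that had a window, and its start site bin was a node at both ages.

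Absence from the old gene lists was in most cases not absence of every node at the gene. The start site bin, where known, was mostly lost. Of the 9 genes listed in young only, 8 still had an old node in or within 2500 bp of the gene (88.9%, 56.5 to 98.0), compared with 49.1% of all protein-coding genes listed in young only. The 8 include Adh1, Adh6a and Adh6b, whose nodes lie in the same clique at each age, so that the interval treats linked genes as independent. When each gene was given the largest clique with a node there, 21 were again smaller in old, but 7 fell at least 2-fold in place of 12, and the median log2 ratio was -0.39 in place of -0.99. That median is the value of all 6 Adh genes, which take the same pair of cliques by this count. It therefore rests largely on that pair and does not show a smaller fall for the families as a whole. Over all listed protein-coding genes this count gave 80.2% smaller, 42.3% at least 2-fold smaller and a median of -0.74. By this count Adh1, Adh6a and Adh6b were at 50 and 38 nodes, Akr1c20 at 16 and 10, Aldh3a2 at 20 and 11, Aldh1a7 at 25 and 3, and Aldh8a1 at 22 and 3. Aldh1a3 was then at 48 and 5, since a young clique of 48 nodes also reached the gene.

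**Figure D5:**
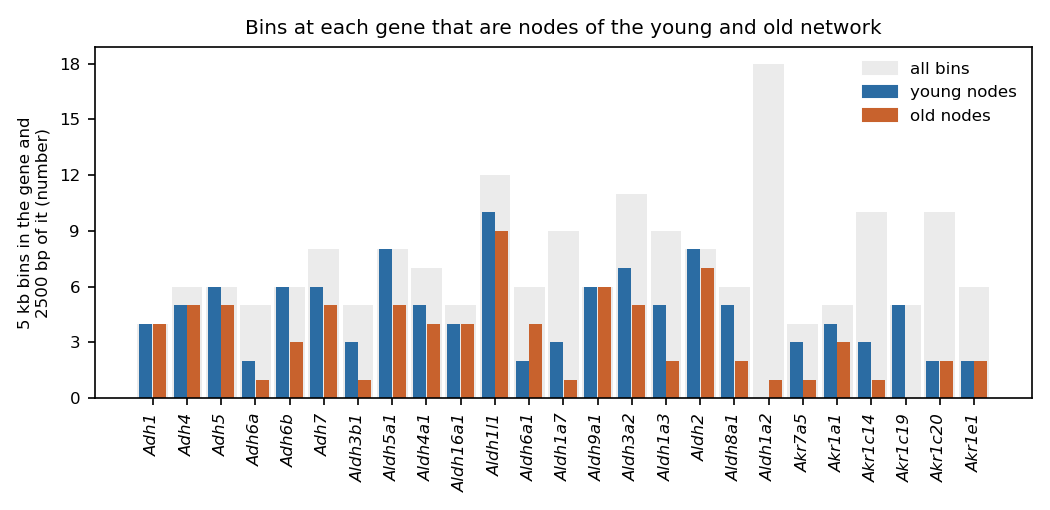
Number of 5 kb bins in or within 2500 bp of each gene (grey) and how many of them are nodes of the young (blue) and old (orange) network. Adh1 has 4 of 4 at both ages, Akr1c19 has 5 in young and 0 in old, and Aldh6a1 has more in old than in young.

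A list of 42 genes set up as partners of these enzymes was grouped under ethanol and acetate use, other clearance of aldehydes and carbonyls, and retinoid metabolism. Of them, 33 were listed at either age. None of the 33 shared a clique with the 25 genes. In old 25 of the 33 were smaller, 6 larger and 2 equal, and 10 fell at least 2-fold. These shares, 75.8% and 30.3%, were below the 78.5% and 48.6% of all listed protein-coding genes. After the same division by mean size the majority turned, with 15 of the 33 smaller in old and 18 larger, beside 58.6% of all genes smaller. By sizes as deposited, all 5 listed genes grouped under ethanol and acetate use were smaller in old, with Adhfe1, of hydroxy acids, counted among them. So were 7 of 11 of other clearance (63.6%) and 13 of 17 of retinoid metabolism (76.5%), and these last 2 shares also lay below 78.5%. Stra6l, a retinol-binding protein receptor gene, and Adhfe1, an oxidoreductase of hydroxy acids, had young cliques of 36 and 29 nodes and none in old. Cyp2e1, the ethanol-oxidising cytochrome P450 gene, was at 148 and 5 nodes, Rxrb, a retinoid X receptor gene, at 49 and 3, and Acss2, which turns acetate into acetyl-CoA, at 76 and 19. Sord, for sorbitol dehydrogenase of the polyol pathway, went the other way, from 3 nodes to 20.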

How the data were processed

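Each age was deposited as 1 table of nodes and 1 table of cliques. Bowtie2 and HiC-Pro, with builds mm10 and GRCm38, are named in the submitters' processing notes. The loop caller, clique method, promoter window and pooling of libraries were not given in the sources used here. Clique size, the number of nodes per clique, was used as the authors deposited it. Gene names were matched by symbol or unique synonym to protein-coding genes of RefSeq GRCm38.p6, which gave 9611 matches and 9596 genes, and gene coordinates are 1-based from that table. The log2 ratio is log2((old + 1)/(young + 1)), and no fold is given for a gene at 0. A bin was shared where both networks had it as a node. Shares carry Wilson 95% intervals (SciPy 1.17.1), which cover counting error only and treat nodes as independent. Calculations were tested on a toy network with known answers. The members and lists were chosen with earlier results of these data known. Genes named in full were those in the largest cliques, listed at 1 age, changed at least 2-fold or sharing a clique, with up to 5 nearest co-listed genes. Of the partner list, the 6 with the largest change were named.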

Additional observations from a re-analysis of the deposited data

How the results depend on the processing

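No paired analysis was possible because each age is 1 pooled network, and for the same reason no replicate could be left out. Of 40 recomputed values, 28 stayed within 1.5 times the main count, at the same median to 2 decimals or within the interval of the main share. Some of the 28 could not move, since each of the 25 genes was in at most 1 clique per age. These are the sums over all cliques of the 25 genes and the share over all young cliques listing them. The 28 also include 15 genes smaller in old relative to mean size in place of 21, and 24 in place of 16 with an old clique by gene span. The median stayed below 0 in each alternative. With cliques assigned by gene span, 7 genes fell at least 2-fold and the median log2 ratio was -0.39, the value shared by all 6 Adh genes. Over all listed protein-coding genes these values were 42.3% and -0.74. Dividing each size by the mean at its age gave a median of -0.35 (all genes -0.32) and 12 genes at least 2-fold smaller (all genes 39.0%). Of the partner genes, 15 were then smaller and 18 larger in old, the opposite majority. Counting only nodes present at both ages gave a median of -0.17 (all genes -0.12) and 11 genes at least 2-fold smaller (all genes 32.0%). Here 15 partner genes were smaller and 4 larger in old. With 1 gene per pair of cliques the median was -1.32 (all genes -1.22), and 10 of 20 fell at least 2-fold (all genes 54.1%). With a pseudocount of 5 the median was -0.95 (all genes -0.58), and 12 genes fell at least 2-fold (all genes 36.3%). Counting only cliques of at least 5 nodes left 21 genes smaller in old and a median of -0.99, beside 69.2% and -0.63 over all genes. Genes in smaller cliques were set to 0 but kept, and those at 0 at both ages count as equal. This lowers the share of all genes by construction. Among genes listed at both ages 12 were smaller in old, 3 fell at least 2-fold and the median was -0.39, the counts being lower by construction. Over all protein-coding genes listed at both ages these values were 81.5%, 35.7% and -0.63. Accepting a neighbouring bin raised the share of young nodes present in old to 83.3%, and that of all young nodes to 75.1%. The pseudocount, the minimum clique size, the division by mean size and the choice of genes at both ages each act on the values by construction. Apart from this, the cause of these shifts was not tested. The unknown depth of both networks limits every difference in size.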

Other observations

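Bins at 18 further genes of the same families, which the rule did not choose, were looked up after the values above were seen. Fewer were nodes in old at 4 genes, Aldh1a1 among them, the number was equal at 4, larger at 1, and no bin was a node at either age at 9. Over the 12882 protein-coding genes with a node in or within 2500 bp of them, 55.9% had fewer in old. That share leaves out genes with no node at either age. Aldh18a1, of proline synthesis, had 3 of 10 bins as nodes in young and 0 in old. Aldh1b1, a mitochondrial aldehyde dehydrogenase gene, had 1 of 3 bins at each age, in a young clique of 36 nodes and an old clique of 2. Akr1c13 and Akr1c12, beside Akr1c19, had 2 and 1 bins in young and 0 in old, while Akr1c6, beside Akr1c20, had 2 of 7 at both ages. Aldh7a1, of lysine breakdown, had 6 of 12 bins at both ages, in cliques of 50 and 33 nodes, and Aldh3b2 had 1 of 4 at both. Aldh3a1 went from 0 of 4 bins to 1, in an old clique of 11 nodes. Akr1b3, Akr1b7, Akr1b8 and Akr1b10 on chromosome 6 had no node at either age.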
